A study of Mus musculus with 10 samples.

Results

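The mRNA of 38 genes that encode basement membrane proteins, elastic fibre proteins and matrix proteoglycans was followed in isolated cardiomyocytes 4 days after myocardial infarction (MI). The genes were chosen by symbol from a list written with earlier results of these data known. All 38 were found among the 51789 Ensembl identifiers of the deposited count table. They comprise 16 basement membrane genes, 17 elastic fibre genes and 5 proteoglycan genes. Cardiomyocytes came from 5 NLC-MI mice, which are non-transgenic littermate controls, and from 5 TgGRK5-MI mice, which carry a transgene that overexpresses the G protein-coupled receptor kinase GRK5 in cardiomyocytes only. Both groups had a permanently tied coronary artery, and the data used here hold no sham-operated hearts, so the comparison is between genotypes after MI. Each library was made from 1 mouse. The study operated on young adult mice of both sexes, and the labels give neither age nor sex for these libraries. In all 10 the Y-linked genes Ddx3y, Eif2s3y, Kdm5d and Uty summed to 158 to 222 CPM, while Xist was at most 0.916 CPM. That is the pattern of male mice in every library. Whether all mice of a group came from 1 transgenic line is not given in the sources used here.

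Basement membranes are thin sheets that surround each cardiomyocyte and underlie the endothelium. Laminins, built from 1 alpha, 1 beta and 1 gamma chain, polymerize into a network, nidogens and the heparan sulfate proteoglycan perlecan tie that network to collagen IV, and cells hold on to it through integrins and dystroglycan. Elastic fibres are made of elastin on a scaffold of fibrillin microfibrils, with fibulins, emilins and microfibril-associated proteins at their surface, while latent TGF-beta binding proteins store the growth factor in that scaffold. Biglycan, decorin, lumican and fibromodulin are small leucine-rich proteoglycans that bind collagen fibrils, and versican is a large one of the loose provisional matrix that forms after injury. In the heart, fibroblasts make most of the interstitial matrix, while endothelial cells, mural cells and cardiomyocytes all add to basement membranes.

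Libraries held from 7968779 to 23381527 counts, and 3 counts, taken as the floor of the depth, stood for 0.121 to 0.393 CPM, counts scaled to a common library size by the TMM method. Grk5 itself averaged 60.4 ± 9.50 CPM across the 5 controls against 1222 ± 472 CPM across the 5 transgenic mice (SD). Markers of cardiomyocytes were abundant in every library, their 10 genes summing to 48656 to 126684 CPM in the controls and 51556 to 102302 CPM in TgGRK5-MI. Markers of other heart cells were present in every library too. The 9 fibroblast markers (among them Col1a1, Postn, Pdgfra and Tcf21) summed to 4217 to 23999.6 CPM in the controls and 4175 to 24631 CPM in TgGRK5-MI. The ranges of the 2 groups overlapped, and each group held libraries at both ends. The 9 endothelial markers summed to 879 to 1592 and 796 to 1677 CPM, the 8 mural cell markers to 1028 to 1629 and 1253 to 1779.5 CPM, and the 8 leukocyte markers to 687 to 2067 and 1120.4 to 2339.9 CPM, NLC-MI first. Schwann cell markers (5 genes) and epicardial or mesothelial markers (5 genes) summed to at most 25.1 and 98.1 CPM in any library, and the sums of the 7 lists overlapped between the groups (lowest two-sided exact permutation p of the 7 0.246). A library with more of a cell type's RNA cannot be told apart from one with more RNA in each such cell.

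Per kilobase of exon, the levels of the 38 genes spanned a wide range in both groups. Biglycan (Bgn) was the most abundant, with a median over the 10 libraries of 188 CPM per kilobase. Fibulin 2 (Fbln2, 63.7), decorin (Dcn, 63.3), perlecan (Hspg2, 50.002), microfibril-associated protein 4 (Mfap4, 49.1), the laminin gamma chain Lamc1 (48.8), the beta chain Lamb2 (44.8), Ltbp4 (42.5), fibrillin Fbn1 (38.3) and nidogen Nid1 (37.6) followed, all as medians in CPM per kilobase. At the low end were Lama1 (0.0333 CPM per kilobase), Lamc3 (0.104), Lama3 (0.305), Hmcn2 (0.332), Fbn2 (0.598) and Hmcn1 (0.855), of which Lama1, Lama3 and Lamc3 are laminin chains known mainly from embryonic, epithelial and nerve tissue. All 38 genes passed the filter on low counts, although Lama1 had 0 counts in NLC-MI replicate 3 and TgGRK5-MI replicate 3. The libraries of a group differed widely: among the 37 genes with counts in every library, the ratio of the highest CPM to the lowest over all 10 ran from 1.66 for Ltbp1 to 29.3 for Fmod.

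**Figure D1:**
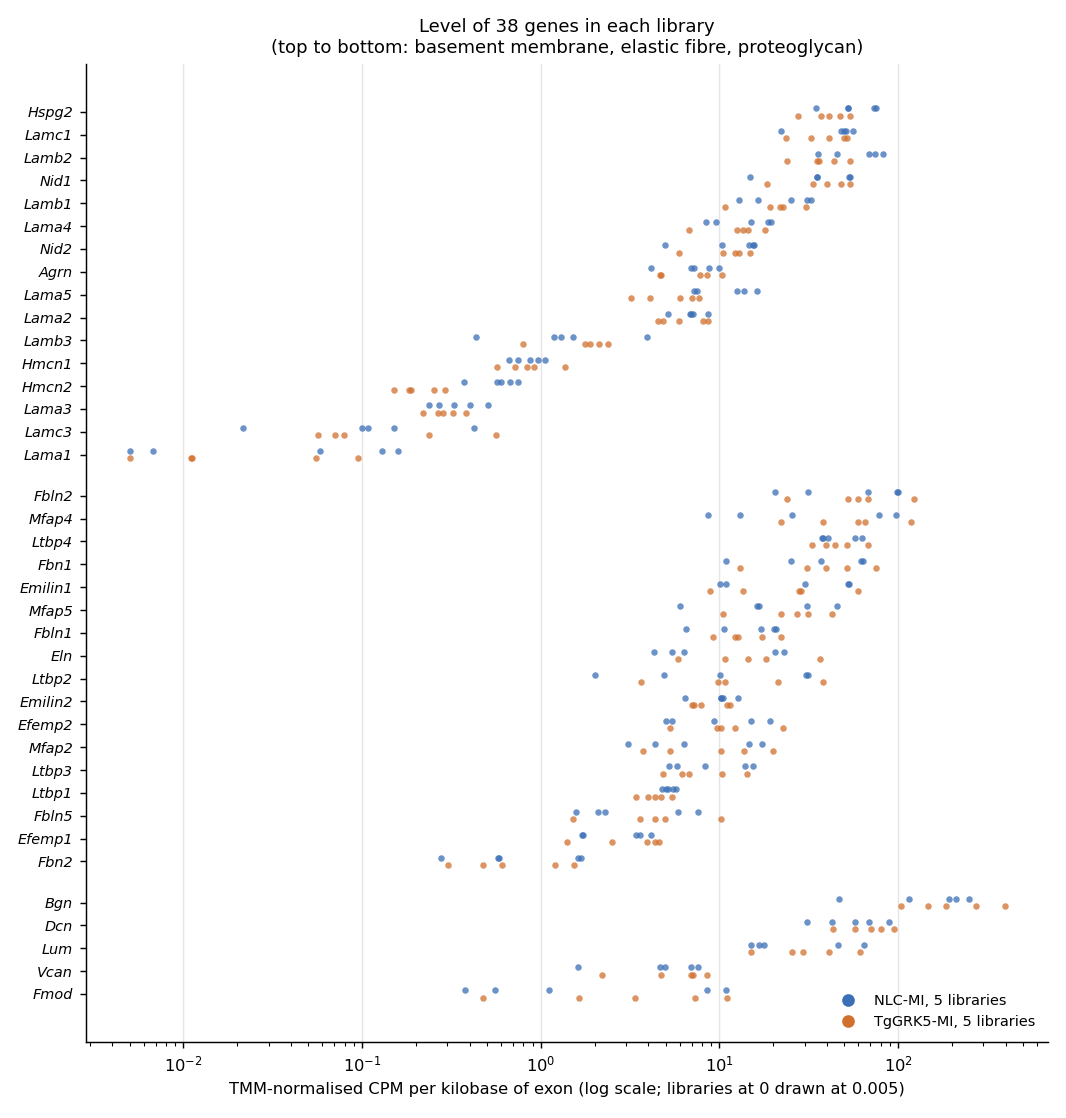
Each row is 1 of the 38 genes and each point 1 library, with the TMM-normalised CPM per kilobase of exon on a log axis, NLC-MI in blue above and TgGRK5-MI in orange below. Bgn lies farthest right, at a median of 188, and only Hmcn2 has all 5 orange points to the left of all 5 blue points.

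In edgeR's test between TgGRK5-MI and NLC-MI, 3 of the 38 genes were under a threshold, all of them basement membrane genes, and the classes themselves were not compared by a test. Hmcn2 was lower in TgGRK5-MI at an adjusted p under 0.10 (quasi-likelihood test, Benjamini-Hochberg over the 15232 genes tested), which makes 1 of 38 genes lower and 0 of 38 higher, where 0.0263% of all genes tested were lower and 0.0525% higher. At an unadjusted p under 0.05, 3 of 38 were lower, Hmcn2, Lama5 and Lamb2, and 0 were higher, where 2.08% of all genes tested were lower and 1.77% higher. In 1 gene, Hmcn2, every TgGRK5-MI library lay below every NLC-MI library, and in none did every TgGRK5-MI library lie above, where the shares of all genes tested were 0.420% and 0.584%. The other 35 genes did not pass the unadjusted threshold. Because the genes were listed with earlier results of these data known, their counts beside the shares of all genes are descriptions. By sign alone, 20 log2 fold changes were positive and 18 negative, with a median of 0.00964 beside 0.00128 over all genes tested. The classes leaned to different sides: 12 of the 16 basement membrane genes were negative (median -0.15), 11 of the 17 elastic fibre genes positive (median 0.0823) and all 5 proteoglycan genes positive (median 0.20), where 49.8% of all genes tested were negative, as descriptions with no test.

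**Figure D2:**
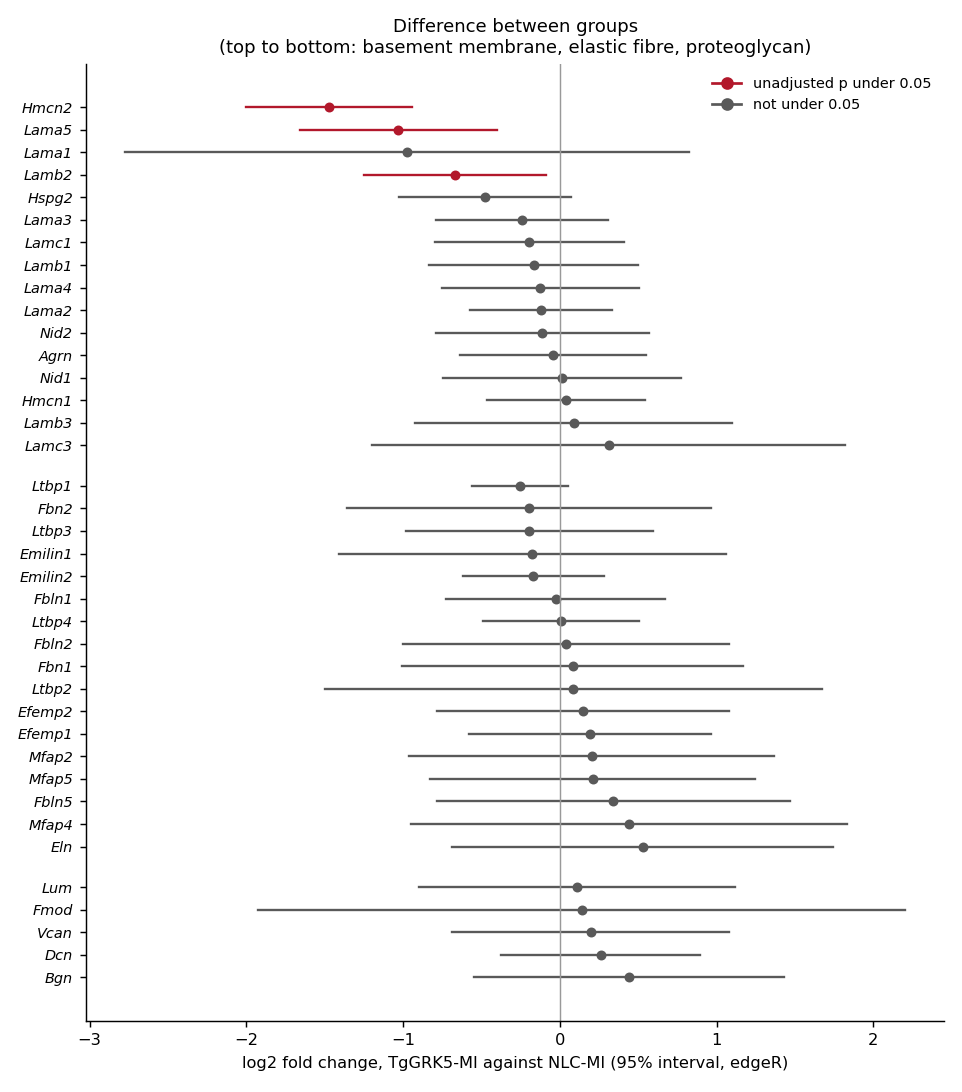
Each row is a gene, the point its log2 fold change in TgGRK5-MI against NLC-MI and the line its 95% interval from edgeR, with genes under an unadjusted p of 0.05 in red. Hmcn2, Lama5 and Lamb2 are the only red rows, and the intervals of the elastic fibre and proteoglycan genes all cross 0.

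Hemicentins are very long matrix proteins of the immunoglobulin superfamily that join neighbouring basement membranes. Hmcn2 (ENSMUSG00000055632, chr2:31314415-31460738, plus strand) fell in TgGRK5-MI and its relative Hmcn1 did not pass the test. In NLC-MI replicates 1 to 5, Hmcn2 was at 9.65, 12.1, 6.02, 10.9 and 9.10 CPM, and in TgGRK5-MI replicates 1 to 5 it was at 4.07, 4.67, 2.96, 3.02 and 2.42 CPM. The highest TgGRK5-MI library was below the lowest NLC-MI library, NLC-MI replicate 3. Levels averaged 9.54 ± 2.28 CPM across the 5 controls against 3.43 ± 0.918 CPM across the 5 transgenic mice (SD), for a log2 fold change of -1.47 (standard error 0.24, 95% interval -2.0 to -0.94, adjusted p = 0.0947 in edgeR). The two-sided exact permutation test on every split of the libraries into 5 and 5 gave p = 0.00794, the smallest that 5 libraries against 5 allow. Hmcn2 was among the scarcest of the 38 genes, with 28 to 298 counts a library. The study selected its own lowered genes on these same samples, so that the direction of Hmcn2 here is not independent evidence. The adjusted p was close to the threshold: it rose above 0.10 when any single library other than NLC-MI replicate 3 or TgGRK5-MI replicate 2 was left out (highest 0.321), while the log2 fold change stayed between -1.62 and -1.37.

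Hmcn1 was at 14.0, 18.5, 15.8, 22.3 and 20.4 CPM in NLC-MI replicates 1 to 5 and 29.0, 15.2, 17.7, 12.1 and 19.5 CPM in TgGRK5-MI replicates 1 to 5. Its groups overlapped throughout, with the highest and the lowest value both in TgGRK5-MI, and its log2 fold change was 0.04 (95% interval -0.46 to 0.54). Of the summed counts of the 2 hemicentins, Hmcn2 made up 34.3 ± 5.68% in NLC-MI and 16.2 ± 5.34% in TgGRK5-MI (SD over 5 mice), spanning 27.5 to 40.8% and from 11 to 23.5%. The shares of the 2 groups were thus apart. They are built on the same Hmcn2 counts as the comparison above, so they restate it and are a description with no test.

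Among the laminin alpha chains, which carry the sites that cells bind, Lama5 was lower in TgGRK5-MI at the unadjusted threshold and Lama1, Lama2, Lama3 and Lama4 did not pass the test, although all 5 log2 fold changes were negative. Lama5 (ENSMUSG00000015647, chr2:180176373-180225859, minus strand) encodes a chain of vascular and epithelial basement membranes. It was at 85.9, 143, 82.3, 184 and 156 CPM in NLC-MI replicates 1 to 5 and 80.5, 68.2, 46.7, 36.6 and 87.0 CPM in TgGRK5-MI replicates 1 to 5. NLC-MI replicates 2, 4 and 5 stood above all TgGRK5-MI libraries, while NLC-MI replicates 1 and 3 lay within a few CPM of the highest TgGRK5-MI libraries, so the groups overlapped. Levels averaged 130.2 ± 44.7 CPM across the 5 controls against 63.8 ± 21.6 CPM across the 5 transgenic mice (SD). In edgeR the log2 fold change was -1.03 (standard error 0.29, 95% interval -1.66 to -0.40, unadjusted p = 0.00396, adjusted p = 0.717), and the two-sided exact permutation p was 0.0238. Lama5 did not pass an adjustment over all genes, but its unadjusted p stayed at or under 0.0127 in all 23 alternative fits.

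Lama4, the chain of endothelial and cardiomyocyte basement membranes and the most abundant alpha chain here per kilobase, was at 225, 234, 116, 182 and 102 CPM in NLC-MI replicates 1 to 5 and 164, 216, 81.2, 152 and 175 CPM in TgGRK5-MI replicates 1 to 5. Its groups overlapped along nearly their whole range (log2 fold change -0.12, 95% interval -0.75 to 0.51). Lama2, the main alpha chain of muscle, averaged 113 ± 20.2 CPM across the 5 controls against 104 ± 30.4 CPM across the 5 transgenic mice (SD), with a log2 fold change of -0.12 (95% interval -0.57 to 0.33). Lama1 had the second most negative value among the alpha chains, -0.97, but at mean levels of 0.685 (controls) and 0.334 CPM (transgenic) a difference was not detectable at this depth (95% interval -2.78 to 0.83). By library Lama1 was at 1.54, 1.25, 0, 0.563 and 0.0654 CPM in the controls and 0.537, 0.916, 0, 0.108 and 0.107 CPM in TgGRK5-MI, replicates 1 to 5 in order.

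Within a library, the alpha chains can be set against each other per kilobase of exon. Lama5 made up 34.7 ± 9.56% of the summed level of the 5 alpha chains in NLC-MI and 22.2 ± 5.09% in TgGRK5-MI (SD over 5 mice), spanning 22.6 to 46.8% and from 15.3 to 27.0%. Lama4 made up 42.7 ± 9.98% and 51.1 ± 6.78%, and Lama2 21.3 ± 2.10% and 25.4 ± 3.67% (SD, n = 5 each). These shares are descriptions, and those of Lama5 overlapped between the groups.

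Of the beta chains, Lamb2 (ENSMUSG00000052911, chr9:108479736-108490530, plus strand), the beta chain of muscle and vessel laminins, was lower in TgGRK5-MI at the unadjusted threshold. It was at 278, 419, 217, 451 and 502 CPM in NLC-MI replicates 1 to 5 and 326, 267, 214, 146 and 221 CPM in TgGRK5-MI replicates 1 to 5. NLC-MI replicates 2, 4 and 5, the same libraries that were high in Lama5, were above all TgGRK5-MI libraries, and NLC-MI replicates 1 and 3 lay among them. Levels averaged 373 ± 121 CPM across the 5 controls against 235 ± 66.8 CPM across the 5 transgenic mice (SD), for a log2 fold change of -0.67 (standard error 0.27, 95% interval -1.25 to -0.09, unadjusted p = 0.0272, adjusted p = 1.00 in edgeR) and a two-sided exact permutation p of 0.0635, so the 2 tests fell on different sides of 0.05. The unadjusted p exceeded 0.05 without NLC-MI replicate 2, 4 or 5 and without TgGRK5-MI replicate 3, 4 or 5 (highest 0.0690). Lamb1, the other abundant beta chain, averaged 234 ± 86.7 CPM across the 5 controls against 208 ± 70.6 CPM across the 5 transgenic mice (SD) (log2 fold change -0.17, 95% interval -0.83 to 0.50). Lamb2 was 71.4 ± 10.3% of the summed Lamb1 and Lamb2 level per kilobase in NLC-MI and 64.7 ± 8.85% in TgGRK5-MI (SD, n = 5 each), so these shares overlapped. Lamb3, an epithelial beta chain, averaged 11.1 ± 8.82 CPM across the 5 controls against 11.8 ± 3.97 CPM across the 5 transgenic mice (SD), with a log2 fold change of 0.09 (95% interval -0.92 to 1.10).

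The gamma chain Lamc1, which nearly all laminins of muscle and vessels share, was at 422, 463, 398, 409 and 182 CPM in NLC-MI replicates 1 to 5 and 340.1, 409, 194, 428 and 268 CPM in TgGRK5-MI replicates 1 to 5. NLC-MI replicate 5 was far below the other NLC-MI libraries, the reverse of its place for Lama5 and Lamb2. The log2 fold change of Lamc1 was -0.19 (95% interval -0.80 to 0.41), and that of the scarce Lamc3 was 0.31 (95% interval -1.20 to 1.82).

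**Figure D3:**
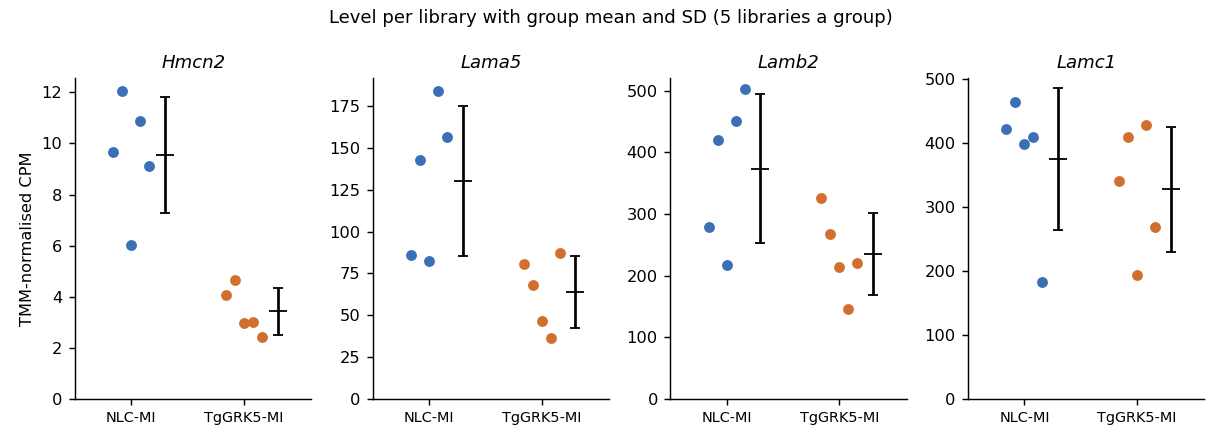
Points are libraries, in TMM-normalised CPM on axes that start at 0, and the black bars give the mean and SD of 5 libraries. For Hmcn2 the groups are apart, for Lama5 and Lamb2 the upper NLC-MI libraries are above TgGRK5-MI, and for Lamc1 the groups overlap, with NLC-MI replicate 5 low at 182.

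The sequence just upstream of the transcription start is shown for the 3 lower genes, since they are the members on which the comparison turns. RefSeq's promoter table (GRCm38.p6) held 26 of the 38 genes. Each run reads 5′ to 3′ on the gene's strand and ends at the start, except that the run of Lamb2 stops 126 bases earlier, where GENCODE places an upstream start of the gene. Capitals mark GC boxes, the letters GGGCGG on either strand. The windows are chr2:31314082-31314331 for Hmcn2 (plus strand), chr2:180225860-180226109 for Lama5 (minus strand) and chr9:108479612-108479735 for Lamb2 (plus strand).
Hmcn2: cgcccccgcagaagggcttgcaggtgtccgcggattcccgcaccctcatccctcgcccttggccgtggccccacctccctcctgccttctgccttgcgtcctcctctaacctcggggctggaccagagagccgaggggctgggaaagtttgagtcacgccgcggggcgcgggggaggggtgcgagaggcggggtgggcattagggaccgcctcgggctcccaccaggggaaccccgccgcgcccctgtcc
Lama5: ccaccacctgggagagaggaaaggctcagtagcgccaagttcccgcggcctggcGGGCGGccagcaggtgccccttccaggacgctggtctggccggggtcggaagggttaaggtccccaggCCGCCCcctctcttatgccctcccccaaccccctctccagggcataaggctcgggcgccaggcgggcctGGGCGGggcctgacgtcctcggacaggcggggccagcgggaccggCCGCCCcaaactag
Lamb2: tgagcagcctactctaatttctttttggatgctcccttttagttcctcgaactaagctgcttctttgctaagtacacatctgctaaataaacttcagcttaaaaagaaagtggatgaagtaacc
Over the 250 bases before the RefSeq start, Hmcn2 and Lama5 each had 72.4% G and C, with 22 and 19 CpG dinucleotides, and Lamb2 43.6% with 3 CpG, beside medians of 52.4% and 6 over 32851 promoters of the same length. Lama5 had 4 GC boxes, the nearest beginning 14 bases before the start, and the others had 0, while 32.7% of all promoters had at least 1. A TATA box (TATAAA) was in none of the 3, and in 12.4% of all promoters, and the MEF2 motif was in none of the 3, and in 2.92% of all promoters. The E-box CANNTG was present in each of the 3, as in 66.2% of all promoters, and so was GGAAA, the core letters that NFAT factors bind, as in 55.6% of all promoters. The only GGAAA match of Lamb2 began 5 bases before the RefSeq start, within the 126 bases that are not printed, past the GENCODE start. The 3 lower genes thus shared no letters searched here that were uncommon among promoters, and a match describes letters only.

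Nidogens, which bridge laminin and collagen IV, did not pass the test. Nid1 was at 373, 367, 244, 243 and 103 CPM in NLC-MI replicates 1 to 5 and 277, 375, 129, 331 and 230.4 CPM in TgGRK5-MI replicates 1 to 5, with NLC-MI replicate 5 and TgGRK5-MI replicate 3 low in their groups. Its log2 fold change was 0.01 (95% interval -0.74 to 0.77), and that of Nid2 was -0.11 (95% interval -0.79 to 0.57). Perlecan (Hspg2), the large heparan sulfate proteoglycan of basement membranes, was at 751, 1074, 752, 1052 and 497 CPM in the controls and 679.6, 774, 392, 589 and 531 CPM in TgGRK5-MI, replicates 1 to 5 in order. All 5 TgGRK5-MI libraries were below the NLC-MI mean, but NLC-MI replicate 5 was lower than 4 of them. Levels averaged 825 ± 241 CPM across the 5 controls against 593 ± 145 CPM across the 5 transgenic mice (SD), for a log2 fold change of -0.48 (95% interval -1.03 to 0.07, unadjusted p = 0.0834 in edgeR, two-sided exact permutation p = 0.135). Agrin (Agrn), which links laminin to dystroglycan, had a log2 fold change of -0.04 (95% interval -0.64 to 0.55).

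Exon length, joined over the transcripts of a gene, moved with these results. Genes with over 15000 exon bases, a class that holds Hmcn1, Hmcn2 and Lama2 and 378 genes in all, had a median log2 fold change of -0.13, and 7.14% of them were lower and 0.529% higher at an unadjusted p under 0.05. By library, the values of this longest class overlapped between the groups, with the highest in NLC-MI replicate 3 and the lowest in TgGRK5-MI replicate 5. From 10000 to 15000 exon bases, the class of Lama3, Lama4, Lama5, Hspg2, Fbn1, Fbn2, Ltbp1 and Vcan, the median was -0.0735, with 3.76% lower and 0.915% higher. From 6000 to 8000 exon bases, the class of Lamb2, the median was -0.0346, with 2.42% lower and 1.21% higher. For genes of 1000 to 2000 exon bases the median was 0.10. The part of length in the lower values of Hmcn2, Lama5 and Lamb2 was not tested.

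None of the 17 elastic fibre genes passed the unadjusted threshold in edgeR, in either direction. Fibrillin Fbn1, the backbone of microfibrils, was at 753, 771, 304, 449 and 132 CPM in NLC-MI replicates 1 to 5 and 628, 911, 158, 481 and 373 CPM in TgGRK5-MI replicates 1 to 5. The spread within each group was several-fold, and the groups overlapped (log2 fold change 0.08, 95% interval -1.0 to 1.17). Elastin (Eln) had the largest positive log2 fold change of the 38 genes, 0.53 (95% interval -0.69 to 1.74, unadjusted p = 0.361 in edgeR), with 96.5 ± 73.5 CPM across the 5 controls against 139 ± 95.5 CPM across the 5 transgenic mice (SD). Fbn2, a fibrillin of developing tissue, had -0.20 (95% interval -1.36 to 0.97).

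The fibulins, which assist elastin deposition or tie microfibrils to basement membranes, had log2 fold changes from -0.03 for Fbln1 to 0.34 for Fbln5. The most abundant of them, Fbln2, was at 629, 633, 199, 430.2 and 131 CPM in NLC-MI replicates 1 to 5 and 429.7, 782, 152, 333 and 382 CPM in TgGRK5-MI replicates 1 to 5, with its highest values in NLC-MI replicates 1 and 2 and in TgGRK5-MI replicate 2. Its log2 fold change was 0.04 (95% interval -1.0 to 1.08). Emilin1, an elastic fibre glycoprotein that restrains TGF-beta processing, was at 261, 259.5, 53.8, 148 and 49.5 CPM in the controls and 138, 294, 43.6, 67.3 and 141 CPM in TgGRK5-MI, replicates 1 to 5 in order, and was high in the same 3 libraries. Its log2 fold change was -0.18 (95% interval -1.41 to 1.06), and that of Emilin2 was -0.17 (95% interval -0.62 to 0.28).

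Latent TGF-beta binding proteins hold inactive TGF-beta in the matrix. Ltbp4, the most abundant of the 4 per kilobase, was at 371, 406, 242, 261 and 246 CPM in NLC-MI replicates 1 to 5 and 288, 441, 213, 335 and 255 CPM in TgGRK5-MI replicates 1 to 5, with overlapping groups (log2 fold change 0.00570, 95% interval -0.49 to 0.50). Ltbp1 varied least between libraries, averaging 56.0 ± 3.84 CPM across the 5 controls against 47.0 ± 8.10 CPM across the 5 transgenic mice (SD). Its log2 fold change was -0.25 (95% interval -0.56 to 0.05, unadjusted p = 0.0975 in edgeR) with a two-sided exact permutation p of 0.0476, again on different sides of 0.05. Ltbp2 and Ltbp3 had log2 fold changes of 0.09 and -0.19. Of the microfibril-associated proteins, Mfap4 was at 187, 151, 48.8, 25.0 and 16.5 CPM in NLC-MI replicates 1 to 5 and 115, 226, 42.2, 125 and 73.3 CPM in TgGRK5-MI replicates 1 to 5. All 3 of these genes had positive values, 0.44 for Mfap4 (95% interval -0.95 to 1.83), 0.20 for Mfap2 and 0.21 for Mfap5, each with an interval across 0.

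The 5 proteoglycans of the interstitial matrix were all slightly higher on average in TgGRK5-MI, and none passed the test. Bgn was at 1527, 1283, 1168, 701 and 284 CPM in NLC-MI replicates 1 to 5 and 1131, 1664, 635, 2408 and 897 CPM in TgGRK5-MI replicates 1 to 5. The highest library was TgGRK5-MI replicate 4 and the lowest NLC-MI replicate 5. Levels averaged 993 ± 497 CPM across the 5 controls against 1347 ± 704 CPM across the 5 transgenic mice (SD), for a log2 fold change of 0.44 (95% interval -0.55 to 1.43). Those of Dcn, Vcan, Fmod and Lum were 0.26, 0.20, 0.14 and 0.11, and the interval of Fmod, -1.93 to 2.21, was the widest of the elastic fibre and proteoglycan genes. An interval of this width leaves differences of over 2-fold in either direction undetected for Fmod, and so do those of Ltbp2, Emilin1, Fbn1 and Fbln2. Those of Bgn, Eln, Mfap4, Fbln5, Mfap2, Mfap5, Lum, Vcan and Efemp2 do so upward, and that of Fbn2 downward.

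Of the 38 genes, 20 followed the amount of fibroblast marker RNA in a library. The fibroblast markers include Col1a1, Col1a2, Col3a1 and Postn, which encode matrix proteins too, and abundant markers weigh most in a summed CPM. The correlations are thus in part between matrix genes. The summed CPM of the 9 fibroblast markers, none of which is among the 38 genes, was 5.90 times as high in the highest library, TgGRK5-MI replicate 2, as in the lowest, TgGRK5-MI replicate 3. NLC-MI replicates 1 and 2 were nearly as high as the first and NLC-MI replicate 5 nearly as low as the second, and the sums of the groups overlapped (two-sided exact permutation p = 0.952). Over the 10 libraries, 20 of 38 genes were positively correlated with the sum by Pearson's r and 0 negatively, at an adjusted p under 0.05 (two-sided permutation tests, 100000 resamples, Benjamini-Hochberg over the 15232 genes tested), where 8.53% of all genes tested were positively and 3.32% negatively correlated. By Spearman's rho 21 of 38 were positively and 0 negatively correlated, where the shares of all genes tested were 6.50% and 1.90%. An r above 0.8 was found for 20 of 38 genes and for 8.42% of all genes tested, among which the fibroblast markers themselves are counted. The median r of the 38 genes was 0.86, beside -0.0139 over all genes tested. For the 38 genes it was 0.84 without the 2 libraries farthest from the median of the sum, 0.74 over the 7 libraries left when the 3 richest in fibroblast markers were taken out, and 0.87 between deviations from the group means.

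The genes at the top were of the elastic fibre and the collagen-binding proteoglycans. Ltbp2, an LTBP bound to fibrillin that does not carry TGF-beta, had r = 0.97 and rho = 0.95, permutation p = 1e-05 and 0.000160, adjusted 0.00224 and 0.0135, and r = 0.96 without the 2 farthest libraries. Lum had r = 0.97 and rho = 0.94, permutation p = 1e-05 and 0.000230, adjusted 0.00224 and 0.0152, and r = 0.97 without them. Fbn1 had r = 0.94 and rho = 0.98, permutation p = 1e-05 and 3.00e-05, adjusted 0.00224 and 0.00907, and r = 0.93 without them. A p of 1e-05 is the smallest these resamples can give. Lower in the order, Lamc1 had r = 0.72, Bgn 0.68, Lama2 0.66 and Hspg2 0.61, none of which passed the adjusted threshold.

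The 3 lower genes were among those whose correlation with the fibroblast markers did not pass. Lamb2 had r = 0.07 and rho = 0.12, permutation p = 0.839 and 0.759, adjusted 0.910 and 0.862, and r = -0.10 without the 2 farthest libraries. Lama5 had r = 0.03 and rho = -0.10, permutation p = 0.942 and 0.784, adjusted 0.969 and 0.879, and r = -0.09 without them. Hmcn2 had r = 0.26 and rho = 0.27, permutation p = 0.456 and 0.447, adjusted 0.628 and 0.625, and r = 0.13 without them, but as deviations from the group means its r was 0.65. Hmcn1 (r = -0.16) and Lamb3 (r = -0.09) were the 2 genes with a negative r. With the summed endothelial markers the median r of the 38 genes was -0.0163, beside 0.0153 over all genes tested. There r ran from -0.84 for Lamb3 to 0.54 for Bgn, and none of the 38 passed the adjusted threshold. Lamb2 had r = -0.65, Lama5 -0.34 and Hmcn2 -0.19 with that sum (permutation p = 0.0418, 0.331 and 0.602, adjusted 0.261, 0.613 and 0.808). As deviations from the group means these r were -0.86, -0.57 and -0.56. With the summed cardiomyocyte markers the median r was -0.75, beside 0.00740. There 18 of 38 genes were negatively and 0 positively correlated by Pearson's r at the adjusted threshold, where 9.03% and 4.99% of all genes tested were. By Spearman's rho these were 3 and 0, where the shares of all genes tested were 3.84% and 2.35%, so the count rests on the measure of correlation. Lama5 and Lamb2 had r of 0.22 and 0.35 with the summed cardiomyocyte markers.

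**Figure D4:**
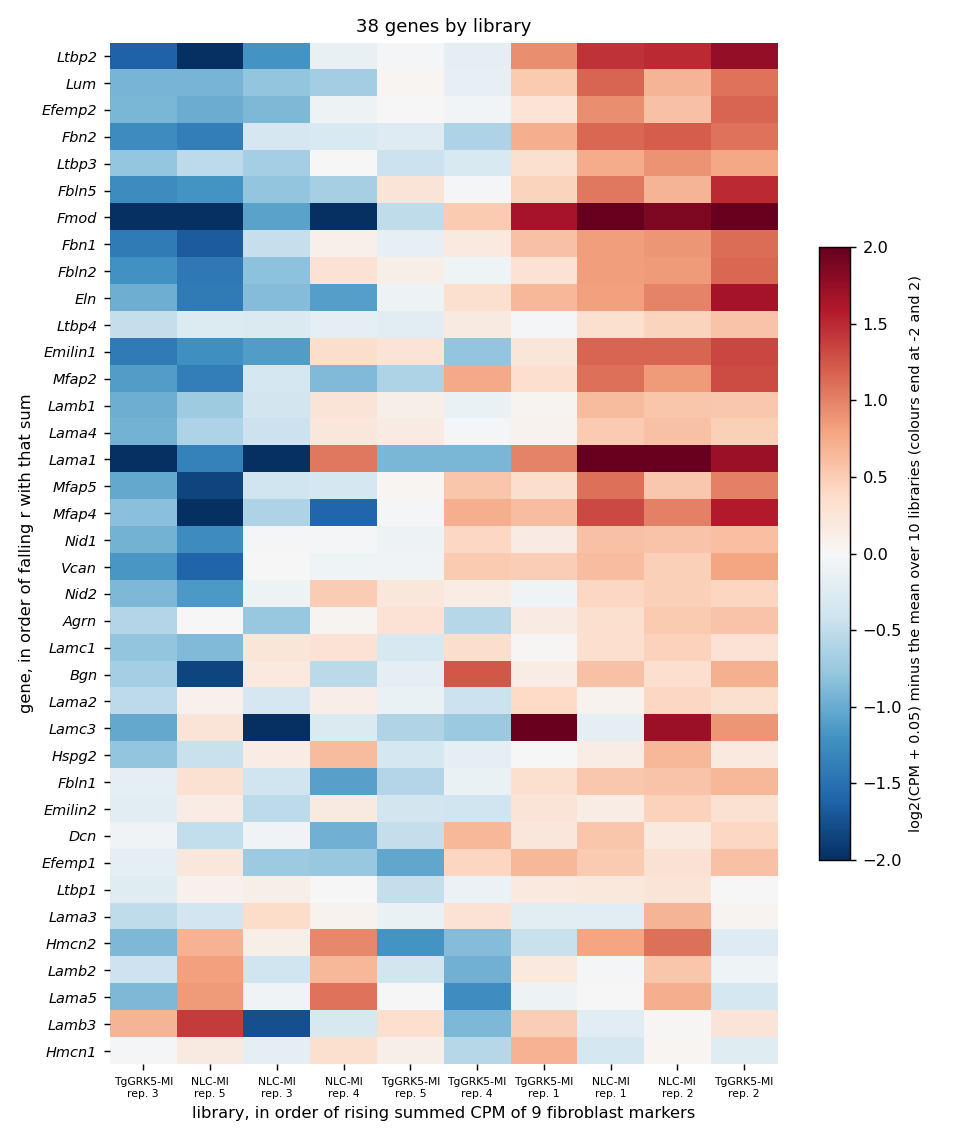
Rows are the 38 genes, from the highest to the lowest r with the fibroblast marker sum, columns are libraries from the lowest to the highest sum, and colours give log2(CPM + 0.05) minus the gene's mean over the 10 libraries. Upper rows run from blue to red with the sum in both groups, while Hmcn2, Lamb2, Lama5, Lamb3 and Hmcn1 at the bottom do not.

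**Figure D5:**
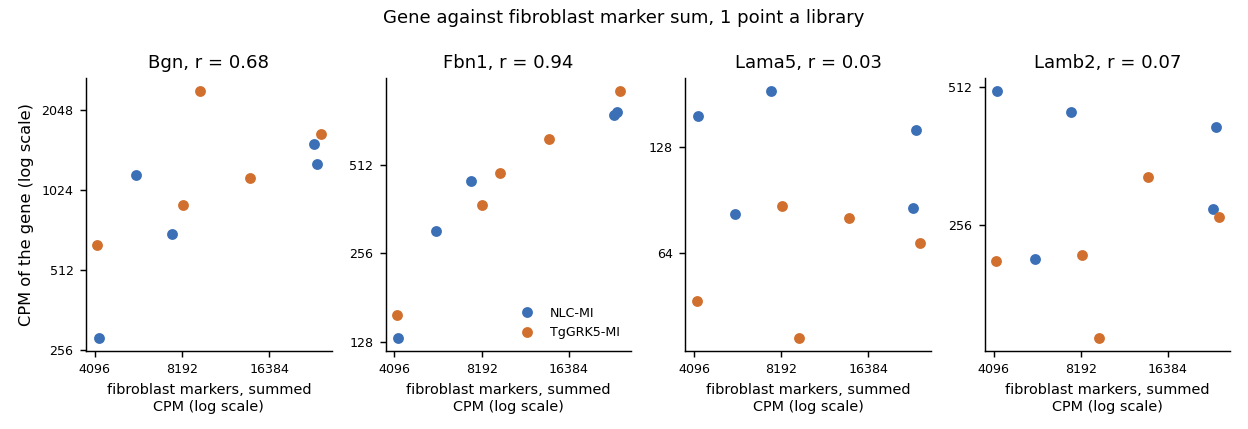
Each point is a library, with the summed CPM of the fibroblast markers on the horizontal and the CPM of the gene on the vertical axis, both log scales. Fbn1 (r = 0.94) and Bgn (r = 0.68) rise with the sum in both groups, and Lama5 (r = 0.03) and Lamb2 (r = 0.07) do not.

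The comparison between groups was therefore also fitted with the fibroblast marker sum, which itself holds matrix genes, as a covariate. Hmcn2 remained lower (log2 fold change -1.50, adjusted p = 0.0163 in edgeR), and 7 of 38 genes passed the unadjusted threshold in place of 3, 4 of them lower and 3 higher. Calls rose over all genes as well: 2.94% of all genes tested were lower and 3.75% higher in this fit. Hspg2 joined Hmcn2, Lama5 and Lamb2 among those lower (log2 fold change -0.51, unadjusted p = 0.0228 in edgeR). Eln (0.59, unadjusted p = 0.00110 in edgeR), Mfap4 (0.74, unadjusted p = 0.0171 in edgeR) and Fbln5 (0.36, unadjusted p = 0.0405 in edgeR) were higher. The adjusted p of Eln in this edgeR fit was 0.244, and those of Mfap4 and Fbln5 were higher. Without the 3 libraries richest in fibroblast markers, a subset of 3 NLC-MI and 4 TgGRK5-MI libraries chosen after seeing the data, 3 of the 37 genes tested were lower (Hmcn2, Lama5 and Lamb2) and 5 higher (Eln, Fbln5, Fmod, Lum and Mfap4) at the unadjusted threshold, where 2.38% of all genes tested were lower and 2.26% higher. At the adjusted threshold 0 of them passed, and the adjusted p of Hmcn2 was 0.593. The elastic fibre genes and proteoglycans that were higher in these fits are thus not called in the comparison without the covariate, and all of them are genes that followed the fibroblast markers.

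Other genes of the same pathways were counted from 5 written lists. Of the 17 laminin receptors and dystrophin complex genes, 1 was lower and 0 higher at an unadjusted p under 0.05. It was Itga7, the alpha subunit of the main laminin-binding integrin of muscle, averaging 305 ± 88.7 CPM across the 5 controls against 198 ± 42.9 CPM across the 5 transgenic mice (SD) (log2 fold change -0.62, standard error 0.22, unadjusted p = 0.0154 in edgeR, two-sided exact permutation p = 0.0159). Its adjusted p was 1.00. The median log2 fold change of that list was -0.0359. Of the 22 other basement membrane genes tested, 15 had negative values and 0 passed (median -0.15), beside 49.8% negative over all genes tested. Of the 16 genes of elastic fibre assembly and crosslinking tested, 0 passed (median 0.0804).

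Of the 22 other proteoglycan core proteins tested (37 written, the rest under the filter on low counts), 1 was lower and 0 higher. It was Cspg4, also called NG2, a marker of pericytes, averaging 54.7 ± 22.3 CPM across the 5 controls against 35.7 ± 9.29 CPM across the 5 transgenic mice (SD) (log2 fold change -0.62, unadjusted p = 0.0497 in edgeR, two-sided exact permutation p = 0.167). Of the genes listed here as mural markers, Abcc9 was lower (221 ± 93.4 CPM across the 5 controls against 139 ± 30.9 CPM across the 5 transgenic mice (SD), log2 fold change -0.67, unadjusted p = 0.0314 in edgeR), and the other 7 did not pass. Whether the Abcc9 RNA came from mural cells or from cardiomyocytes was not tested. Of the 8 mural markers, 6 log2 fold changes were negative and 2 positive, from -0.67 to 0.51. Their sum gave a two-sided exact permutation p of 0.595. The cardiomyocyte marker Ryr2 was lower (1489 ± 538 CPM across the 5 controls against 783 ± 184 CPM across the 5 transgenic mice (SD), log2 fold change -0.93, unadjusted p = 0.00903 in edgeR), and the other 9 cardiomyocyte markers did not pass. Of the 10 cardiomyocyte markers, 6 log2 fold changes were negative and 4 positive, the highest at 0.35, with a median of -0.0937. Their sum gave a two-sided exact permutation p of 0.643. All 8 leukocyte markers had positive log2 fold changes, and none passed. The part of these cell types in the lower laminin and hemicentin values was not tested. Of the 35 genes of glycosaminoglycan chain synthesis tested, 0 passed, with 12 positive and 23 negative values (median -0.0546). Among the 38 genes, 13 share exon bases with a gene on the other strand, from 89 bases for Mfap4 to 2442 for Fbn1, and the strand setting of the counting is not given in the sources used here, so reads of such partners cannot be told apart. Hmcn2, Lama5 and Lamb2 are not among the 13.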

How the data were processed

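RNA of cardiomyocytes isolated 4 days after MI was sequenced in 10 libraries, 5 NLC-MI and 5 TgGRK5-MI, grouped by the genotype and replicate in the sample labels, 1 mouse per library. The authors deposited whole-number counts per Ensembl gene, not normalized. The submitters' processing notes name Bowtie2, RSEM 1.2.31, DESeq2 and the build mm10, without roles or order, and if RSEM made the counts they are rounded estimates. Total RNA was extracted with Trizol and libraries were made with an Illumina TruSeq kit. The strand setting is not given in the sources used here.

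Symbols, positions and union exon lengths came from GENCODE M21 on GRCm38, and a symbol with several identifiers took the one with the most counts. In R 4.3.3, counts were normalized by TMM, filtered with filterByExpr by group (15232 of 28506 genes with a count were tested) and compared with edgeR 4.0.16 (glmQLFit and glmQLFTest, legacy=FALSE), with Benjamini-Hochberg adjustment over the genes tested. Thresholds were an adjusted p under 0.10 and an unadjusted p under 0.05. Log2 CPM (prior count 2) was compared with the two-sided exact permutation test on every split of the libraries into 5 and 5, whose smallest p is 0.00794. Correlations used 100000 permutations in Python 3.11.15, adjusted over all genes tested, in place of the adjustment over the members planned at first. The fits were also run on simulated counts drawn gene by gene. Those held no shared differences in cell content between libraries, so they say nothing about the effect of such differences. Totals of 7968779 to 23381527 counts set the precision, and p-values measure the spread between these mice.

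The members, their lists and the pathway and marker lists were chosen with earlier results of these data known. Members given by library were those under either threshold or with groups apart, the highest per kilobase in each of 12 role groups and the 3 with the largest absolute log2 fold change. Outside the members these were Grk5 and, per pathway list, at most 3 genes under the unadjusted threshold. Eln, Fbln5, Fmod, Lum and Ltbp1 were named after their values were seen, as were the markers Abcc9 and Ryr2. Alternatives were RLE size factors, library size alone, no filter, at least 10 counts in every library, DESeq2 1.42.0, limma-voom (limma 3.58.1) with quality weights, the robust fit, the replicate block, covariates, a prior count of 0.5 and each library left out. The cardiomyocyte covariate and correlations and the fits without 3 libraries were added after seeing the data. No sequences of proteins were used here.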

Additional observations from a re-analysis of the deposited data

Results flagged for a closer look

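Of 90 groups of 5 libraries examined (38 genes and 7 marker sums in each group), 1 held a library far from the other 4 by Dixon's criterion, where chance alone gives about 1 in 20. Lamc1, the laminin gamma chain, was at 182 CPM in NLC-MI replicate 5 and between 398 and 463 CPM in the other 4 NLC-MI libraries. The same library was the lowest of NLC-MI in Nid1, Hspg2, Fbn1 and Bgn and had the highest summed cardiomyocyte markers of all 10 (126684 CPM), and their part in the Lamc1 value was not tested.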

How the results depend on the processing

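Hmcn2, Lama5 and Lamb2 kept a negative log2 fold change in all 23 alternative fits, and Hmcn2 and Lama5 an unadjusted p under 0.05. The log2 fold change of Hmcn2 ranged from -1.66 to -1.37 and its adjusted p from 1.61e-05 (DESeq2) to 0.593 (without the 3 libraries richest in fibroblast markers), so that 0 in place of 1 of the 38 genes passed the adjusted threshold with library size alone, with the Xist and Y-linked covariate, without the 3 libraries with fewest counts and without those 3 richest in fibroblast markers. Leaving out 1 library gave 0 to 1 such genes, and 2 to 4 genes at the unadjusted threshold. The genes there were 7 with the fibroblast covariate and 8 without the 3 fibroblast-rich libraries, in place of 3. The fits without several libraries have fewer libraries, and other causes were not tested. In every library Xist was at most 0.916 CPM and the Y-linked genes summed to at least 158 CPM. The Xist and Y-linked covariate therefore did not contrast the sexes.

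Over all genes, 12 passed the adjusted threshold, and 69 did with DESeq2, 50 with limma-voom, 4 with the Xist and Y-linked covariate, 29 and 28 with the fibroblast and cardiomyocyte covariates, 1 without the 3 fibroblast-rich libraries, 6 without the 3 with fewest counts and 3 to 10 without single libraries. The unadjusted threshold was passed by 586, by 1163 with no filter, 1810 with limma-voom, 1019 and 1051 with the fibroblast and cardiomyocyte covariates and 457 to 1069 without single libraries, the last without NLC-MI replicate 3. In the pathway lists together it was passed by 2 genes, by 8 with limma-voom, 6 and 4 with those covariates, 6 without the 3 fibroblast-rich libraries and 1 to 7 without single libraries. The median log2 fold change of the 38 genes ranged from -0.22 to 0.12 without single libraries, and from -0.28 (limma-voom) to 0.20 (without the fibroblast-rich libraries) otherwise.

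Genes with a log2 fold change near 0 changed sign. With limma-voom it was -0.27 for Nid1, -0.31 for Fbn1, -0.32 for Fbln2, -0.23 for Ltbp4, -0.12 for Lum and -0.24 for Fmod. With the Xist and Y-linked covariate it was -0.00964 for Nid1, -0.0990 for Fbn1, -0.17 for Fbln2, -0.17 for Ltbp4, -0.14 for Lum and -0.44 for Fmod. With the cardiomyocyte covariate it was -0.12 for Nid1, -0.0766 for Fbn1, -0.15 for Fbln2 and -0.0910 for Ltbp4. For Ltbp4 it was -0.00907 with RLE size factors, -0.00911 with DESeq2 and -0.00656 with the fibroblast covariate, and for Nid1 -0.00128, -0.00109 and, with library size alone, -0.00232. Without the 3 fibroblast-rich libraries it was -0.0122 for Hmcn1, 0.0845 for Lama4 and 0.20 for Emilin1, and without the 3 with fewest counts 0.0863 for Emilin1. Without single libraries the ranges were -0.20 to 0.18 for Nid1, -0.23 to 0.32 for Fbn1, -0.32 to 0.26 for Fbln2, -0.16 to 0.13 for Ltbp4, -0.20 to 0.52 for Lum, -0.43 to 0.82 for Fmod, -0.11 to 0.72 for Fbln5, -0.18 to 0.16 for Hmcn1, -0.27 to 0.0332 for Lama4 and -0.66 to 0.0932 for Emilin1.

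The labels do not say whether same-numbered libraries of the 2 groups share a batch. Their correlations of deviations over genes were 0.0717, 0.662, 0.381, -0.341 and 0.0848, with a mean of 0.172. For different numbers the mean was -0.0274, and the values ran from -0.606 to 0.731. Of the 5 NLC-MI libraries 1, replicate 2, correlated best with its own number. These values do not settle whether the numbers mark a batch. With the replicate number as a block, 0 of the 38 genes passed the adjusted threshold (Hmcn2 adjusted p = 0.139 in edgeR) and 4 the unadjusted one, Eln having been added, and the block gave log2 fold changes of -0.00445 for Hmcn1 and -0.00327 for Ltbp4. A prior count of 0.5 moved no permutation p of these genes across 0.05. At 3 counts the depth sets a floor of 0.121 to 0.393 CPM, which touches Lama1 and Lamc3.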
